A study of Homo sapiens with 4 samples.

Results

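The 402 regions described here were m6A peaks that were called in H1975 cells with and without METTL3 knockdown and whose pileup, the height of the MeRIP signal at the summit in scaled reads, was at least 2 times as high after knockdown. They were chosen from 6863 pairs of peaks, each made of 1 NC-sh and 1 METTL3-sh peak that overlapped by 1 bp or more and overlapped no other peak of the other list. A pair was a member when its log2 ratio of pileup, METTL3-sh over NC-sh, was at least 1. This held for 5.86% of the pairs (95% Wilson CI 5.33 to 6.44%). As the pileup ratio chose the members, pileup, fold enrichment and their ratios are given as a description with no test.

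N6-methyladenosine (m6A) is written on mRNA by a complex whose catalytic subunit is METTL3, is removed by demethylases and is bound by reader proteins such as those with a YTH domain, which affect the decay, splicing and translation of the transcript. In MeRIP-seq, RNA is fragmented and the fragments bound by an m6A antibody are sequenced next to an Input, the same fragmented RNA without pulldown. The height of a MeRIP peak therefore depends on the methylation of the transcript and also on how much of that transcript the cell holds. The local expectation, the read density that the peak caller expects at a site, is the part of the peak lists that reflects the Input. Fold enrichment sets pileup against that expectation.

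H1975 is an established human lung adenocarcinoma (LUAD) cell line, here grown in high-glucose DMEM. The groups were total RNA of cells carrying either a control shRNA (NC-sh) or one against METTL3 (METTL3-sh), which the labels describe as lentiviral interference for 48 h. Each group had 1 Input and 1 MeRIP library (4 libraries), and peak lists were given for the 2 MeRIP libraries. With 1 library per condition, no difference below could be checked against replicates, and p-values between conditions are not given. Intervals cover counting error only, and peaks of 1 library are not replicates.

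All peak names of both lists, 9441 in NC-sh and 12252 in METTL3-sh, begin with H1299, whereas the labels give H1975. H1299 is another line that the authors count as LUAD. Positions are on hg19, the build in the submitters' processing notes, and are those of the NC-sh peak. Genes, transcript regions, sequence motifs, markers of the cell line and METTL3 itself were not analysed here, since the annotation at hand is on GRCh38.p14 and no position was converted. Regions are therefore named by position. One read was worth a pileup of 0.327 in NC-sh but 0.364 in METTL3-sh, so the scaling alone puts METTL3-sh higher by 0.15 on the log2 scale. Over all pairs the median log2 ratio of pileup was 0.28, with 5198 pairs higher in METTL3-sh, 1660 lower and 5 equal. By pileup as deposited, 402 pairs at least doubled and 45 at least halved. Relative to the median of all pairs these numbers were 116 and 118.

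The members were mostly small peaks. Their median pileup went from 22.1 in NC-sh to 52.4 in METTL3-sh, against 84.8 and 101 in the other 6461 pairs. In reads at the summit this was a median of 67.5 in NC-sh (range 25 to 2087) and 144 in METTL3-sh (range 50 to 4233). The other pairs had medians of 259 and 279 reads. The members were thus lower than the other pairs in both libraries, and the larger gap in NC-sh follows from the rule.

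**Figure D1:**
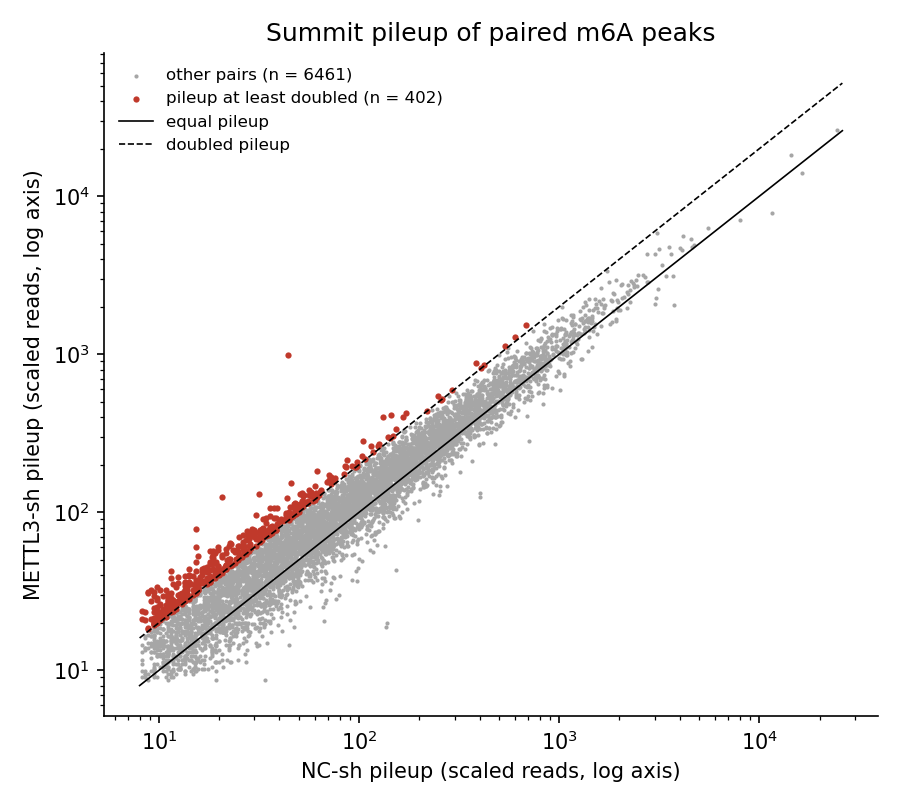
Each point is a pair of peaks, placed by its summit pileup in NC-sh (x axis) and METTL3-sh (y axis), both in scaled reads on log axes, with lines at equal and at doubled pileup. The 402 members lie on or above the dashed line, most of them at the low end of both axes, and 1 stands far above the rest with a METTL3-sh pileup of 982.

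When all pairs were divided into 10 groups of similar size by NC-sh reads, members made up 21.1% of the group with 25 to 51 reads (146 of 693, 95% Wilson CI 18.2 to 24.3%). The share was 11.8% at 52 to 79 reads and 9.66% at 80 to 116 reads. It was 1.75% at 236 to 339 reads and 0.437% in the deepest group (3 of 687, 0.149 to 1.28%). The median log2 ratio of all pairs also went from 0.53 in the group with fewest reads to 0.18 in the deepest, and its SD from 0.53 to 0.32. NC-sh reads enter the ratio that chose the members, so these shares describe where the rule found them.

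**Figure D2:**
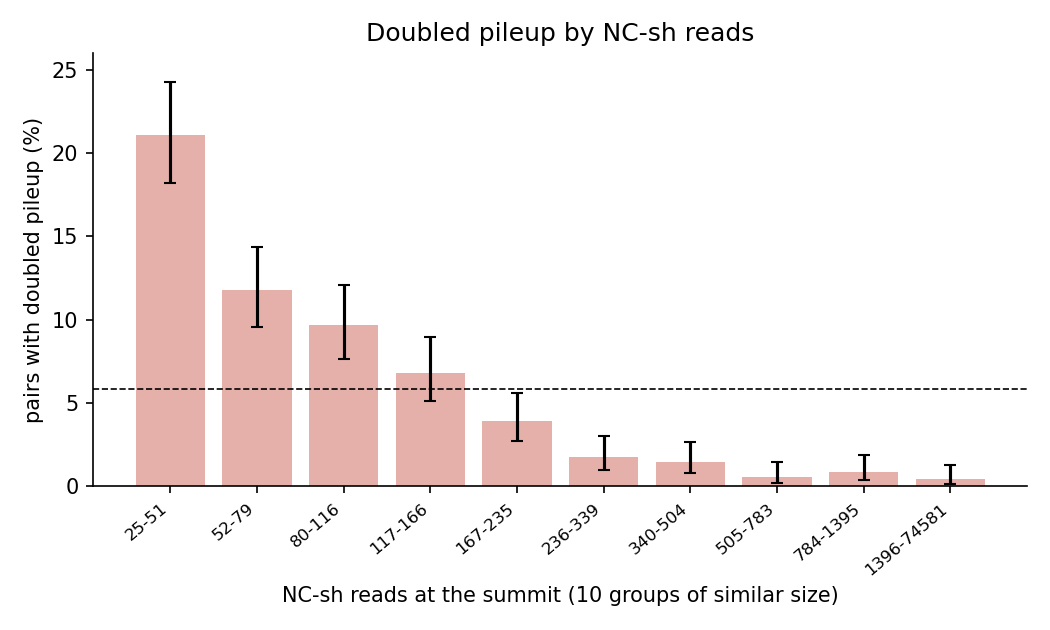
Bars give the share of pairs with doubled pileup (%) in 10 groups of similar size by NC-sh reads at the summit, error bars are 95% Wilson intervals and the dashed line marks all pairs (5.86%). The share falls from 21.1% in the group with fewest reads to 0.437% in the deepest.

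The rise was close to the threshold in many members. The log2 ratio had a median of 1.16 and quartiles of 1.07 and 1.31, with 235 members below 1.2, 41 at 1.5 or more and 4 at 2 or more. Just inside the threshold, pileup went from 18 in NC-sh to 36 in METTL3-sh both at chr17:30505252-30505608 and at chr15:76990842-76991297, and 13.1 and 26.2 at chr7:102859257-102859513. Just outside it, pileup was 22.9 and 45.8 at chr14:104053435-104053635, 11.5 and 22.9 at chr1:40934150-40934444, and 14.7 and 29.5 in a region of chromosome 8. These pairs had 35 to 70 reads in NC-sh, and the members among them cannot be told apart from the pairs outside by counting error.

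An exact binomial interval of the 2 read numbers, put on the pileup scale, lay wholly above a log2 ratio of 1 in 64 members (15.9%) and held 1 in the other 338. Among the other pairs, 918 of 6461 (14.2%) had an interval that held 1. The reads are those that chose the members, so these numbers describe how close to the threshold they lay.

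The largest rise was at chr3:83737430-83737801. Pileup there went from 44.2 in NC-sh to 982 in METTL3-sh, from 135 and 2701 reads, a log2 ratio of 4.47 (95% exact binomial CI 4.22 to 4.73). Fold enrichment was 29.9 and 619, and the local expectation was at the lowest value of each library, 0.511 in NC-sh and 0.588 after knockdown. The METTL3-sh fold enrichment was the highest of any pair in either library, and the MeRIP signal was not accompanied by Input signal above the lowest expectation. The peak was 372 bp long in NC-sh and 494 bp in METTL3-sh, with the summits 15 bp apart.

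The next largest rise was smaller by far. At chr16:15681358-15681644 pileup went from 20.6 in NC-sh to 126 in METTL3-sh, a log2 ratio of 2.61 (2.22 to 3.02). The expectation rose there from 1.0 to 8.0 and fold enrichment only from 10.8 to 14.1. At chr9:47166037-47166248 pileup was 15.4 and 78.5 (log2 ratio 2.35, 1.89 to 2.84), with the expectation at 0.511 and 2.0. At chr9:114394478-114394704 it was 31.8 and 131 (log2 ratio 2.05, 1.72 to 2.39), with the expectation at 2.0 and 9.0. In these 3 regions the expectation rose by more than fold enrichment.

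The following regions rose without such a change of the expectation. At chr10:134999856-135000055 pileup went from 15.4 in NC-sh to 59.99 in METTL3-sh (log2 ratio 1.96, 1.49 to 2.46), while the expectation was 1.0 and 0.588 and fold enrichment went from 8.19 to 38.4. At chr11:281242-281514 pileup was 11.5 and 42.5 (log2 ratio 1.89, 1.34 to 2.48), with the lowest expectation in both libraries and a fold enrichment of 8.24 and 27.4. At chr1:109795682-109795881 pileup was 8.84 and 31.3 (log2 ratio 1.82, 1.18 to 2.50), and fold enrichment was 6.51 and 18.8. The NC-sh peak of the last region lay close to the limit of the lists, as no deposited peak had a fold enrichment below 6.0.

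The other regions among the 12 with the largest ratio also had few NC-sh reads, between 27 and 48. Pileup went from 9.16 in NC-sh to 32.4 in METTL3-sh at chr1:43603261-43603551, 15.7 and 53.1 at chr5:31496802-31497077, and 11.5 and 38.5 at chr7:154741874-154742194, with fold enrichment higher by 1.39, 1.21 and 1.28 on the log2 scale. It was 8.84 and 30.9 at chr22:41470995-41471428 and 9.82 and 33.5 at chr12:122808090-122808447, where fold enrichment was higher by 0.29 and 0.52 and the expectation by 2.55 and 1.91. High pileup ratios were therefore reached both with and without a matching rise of fold enrichment.

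The members with the best support from reads had smaller ratios. With at least 500 NC-sh reads there were 13 members among 2066 pairs (0.629%, 95% Wilson CI 0.368 to 1.07%). The deepest was chr5:176084440-176085184, with a pileup of 683 in NC-sh against 1539 in METTL3-sh from 2087 and 4233 reads, a log2 ratio of 1.17 (1.10 to 1.25). Fold enrichment there went from 17.1 to 42.1, and the expectation was 39.0 and 35.6. The summit was at the same base in both libraries. Its deep neighbour on the same chromosome, chr5:176024035-176026002, had a pileup of 218 and 437, but a fold enrichment of 14.8 and 14.6 and an expectation of 13.8 and 29.0. Of 2 deep members on 1 chromosome, pileup rose over a level expectation in the first and together with it in the second.

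A pair of deep members on chromosome 4 had the same order of size. At chr4:81207392-81208145 pileup went from 384 in NC-sh to 878 in METTL3-sh, a log2 ratio of 1.19 (1.09 to 1.30), and fold enrichment was 58.3 and 73.2. This was the highest NC-sh fold enrichment of the members. At chr4:81123675-81124546 pileup was 534 and 1126 (log2 ratio 1.08, 0.99 to 1.16), with a fold enrichment of 8.64 and 12.9 over the highest expectation of the members, 61.0 and 86.2.

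On chromosome 12, chr12:69249166-69250490 had a pileup of 599 and 1288 (log2 ratio 1.10, 1.02 to 1.19), an expectation of 27.0 and 43.0 and a length of 1325 bp in NC-sh against 1305 bp in METTL3-sh. At chr1:15546026-15546906 pileup was 291 and 598 (log2 ratio 1.04, 0.92 to 1.16), and fold enrichment went from 24.3 to 76.8 while the expectation went from 11 to 6.80. At chr21:46711174-46712018 pileup was 172 and 425 (log2 ratio 1.30, 1.15 to 1.45), with an expectation of 14 and 15. The regions on chromosomes 1 and 21 gained fold enrichment, whereas in that on chromosome 12 the expectation rose by more, by 0.67 against 0.45 on the log2 scale.

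At chr1:247013832-247014739 pileup was 407 and 818, at chr7:77378785-77379267 422 and 857, and at chr7:151873375-151875022 258 and 516. Their counting intervals all held a log2 ratio of 1. At chr15:67486179-67486766, with 249 and 548, the interval was 1.01 to 1.26. At chr7:83277759-83278085 pileup was 125 and 270 with a fold enrichment of 42.0 and 67.7, the summits lying at the same base. These regions complete the 12 members with the highest −log10 q in METTL3-sh, which also include the region on chromosome 3.

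Pileup can double with the expectation or over it. The median log2 ratio of fold enrichment was 0.80 in the members (95% CI of the median 0.73 to 0.91), against 0.13 in all pairs. That of the local expectation was 0.58 (0.43 to 0.67), against 0.20 in all pairs. The lowest expectation of METTL3-sh was itself higher than that of NC-sh by 0.20 on the log2 scale. Of the members, 155 reached a doubling of fold enrichment (38.6%, beside 9.40% of all pairs) and 119 a doubling of the expectation (29.6%, beside 13.9%). Only 2 had both (0.498%, beside 0% of the other pairs), and 130 had neither (32.3%, beside 79.5% of the other pairs). In 50 members (12.4%, beside 42.9% of the other pairs) fold enrichment was below that of NC-sh, in spite of the higher pileup. Since these measures come from the same contrast as the pileup ratio and are tied to it arithmetically, the shares describe how the ratio was made up.

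**Figure D3:**
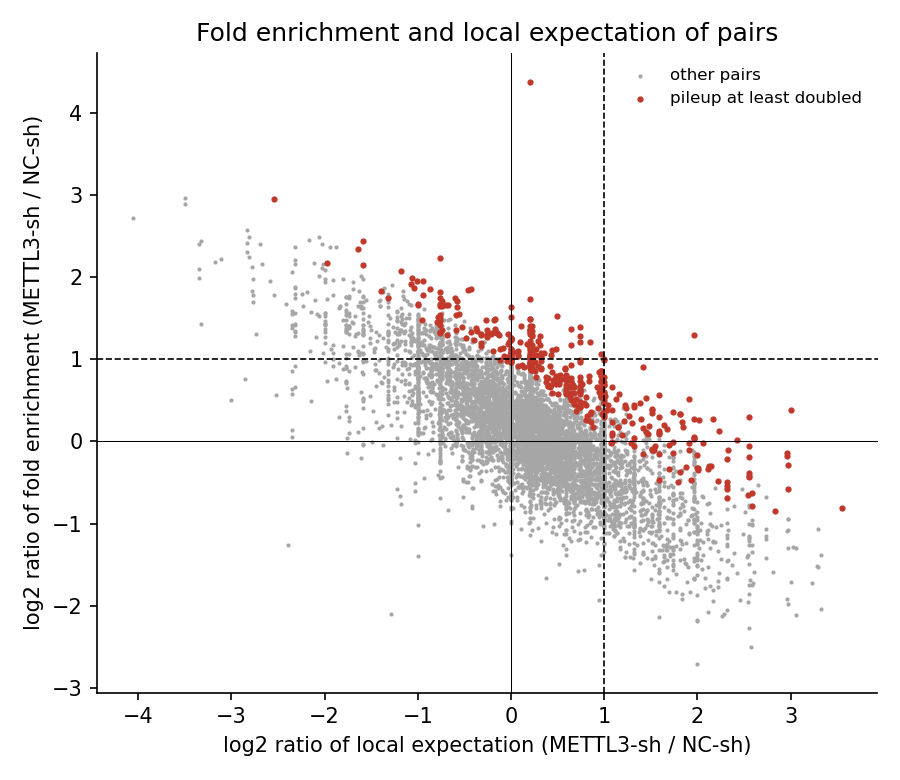
Each point is a pair, placed by its log2 ratio of local expectation (x axis) and of fold enrichment (y axis), METTL3-sh over NC-sh, with dashed lines at a doubling and solid lines at no change. The members form a band along the upper right edge, from a doubled fold enrichment (155) to a doubled expectation (119), with 2 in the corner where both doubled.

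In the 153 members in which only fold enrichment doubled, its median was 8.02 in NC-sh against 21.1 in METTL3-sh, and the expectation had a median of 1.40 and 1.0. Their METTL3-sh peaks had a median length of 452 bp against 315 bp in NC-sh. The 6 members whose expectation changed least were of this kind or close to it. At chr22:16123142-16123390 the expectation was 7.0 in both libraries, pileup went from 53 in NC-sh to 128 in METTL3-sh, and fold enrichment was 6.75 and 16.2. At chr7:139790738-139791040 it was 4.0 in both, with a pileup of 32.1 and 77.4. At chr19:58291471-58291947 it was 1.60 in both, with a pileup of 55.6 and 115. The remaining 3, chr5:76722404-76722775, chr7:112412756-112413115 and chr14:91340076-91340295, had log2 ratios of pileup of 1.13, 1.01 and 1.04 over an expectation between 1.0 and 3.0.

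In the 117 members in which only the expectation doubled, its median was 1.0 in NC-sh against 4.0 in METTL3-sh, while fold enrichment had a median of 10.5 and 10.7. Expectations this low were given no counting interval, and the part of counting error in their rise was not tested. The expectation rose most at chr6:121556545-121556911, from 0.511 to 6.0. Pileup there was 29.1 and 78.5, and fold enrichment fell from 19.9 to 11.4. At chr3:125647379-125648383 pileup was 61.9 and 183 and fold enrichment 41.6 and 36.9. At chr4:159091956-159092553 pileup was 25.2 and 70.2 and fold enrichment 17.3 and 14.2. Fold enrichment was also lower at chr10:134161487-134161812 (24.3 and 16.3) and at chr10:135396131-135396486 (7.37 and 6.67). It was thus lower in 5 of the 6 regions with the largest rise of expectation. The region on chromosome 16 described above was the sixth. Fold enrichment has the expectation in its divisor, so choosing regions by that rise favours a lower fold enrichment by arithmetic. With peak lists alone, more RNA of a transcript and more methylation of it cannot be told apart for the members in general, and the depth of the Input libraries is not known.

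At the low end the expectation carries little information. It was at the lowest value of both libraries in 32 members (7.96%, against 3.88% of the other pairs). When the other pairs were weighted to the NC-sh reads of the members, their share was 14.1%. In 54 members (13.4%, against 3.42% of the other pairs) it was at the lowest value in NC-sh alone. In 15 members (3.73%, against 2.55%) it was so in METTL3-sh alone. The shares in NC-sh alone and in METTL3-sh alone were not weighted to NC-sh reads.

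The members were wider after knockdown. The METTL3-sh peak was longer than the NC-sh peak in 325 members (80.8%, 95% Wilson CI 76.7 to 84.4%), against 56.2% of the other pairs and 59.2% of these when weighted to the members' NC-sh reads. The median length was 325.5 bp in NC-sh against 403.5 bp in METTL3-sh. In 89 members (22.1%) the METTL3-sh peak was at least 1.5 times as long, against 9.02% of the other pairs. As a called peak ends where its signal fails the caller's threshold, length is not independent of pileup. The summits of the members lay a median of 27 bp apart (23 to 31), against 17 bp (16 to 18) in the other pairs. They lay within 50 bp in 290 members (72.1%), against 82.1% of the other pairs. The share at least 1.5 times as long and the summit distances were not weighted to NC-sh reads, which were fewer in the members.

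Position in the genome was not used to choose the members. They lay on 23 chromosomes, and chromosomes 7 and 5 held 86 of them (21.4%) with 10.96% of all pairs. On chromosome 7, 46 of 351 pairs were members (13.1%, 95% Wilson CI 9.97 to 17.0%), against 5.47% of the pairs elsewhere, a difference of 7.64 percentage points (95% Newcombe CI 4.45 to 11.6). On chromosome 5 there were 40 of 401 (9.98%, 7.41 to 13.3%), a difference of 4.37 points (1.74 to 7.74). At the share found in each group of NC-sh reads, 22.8 members would have stood on either chromosome. Chromosome 9 had the smallest share among chromosomes with more than 1 pair, 7 of 287 (2.44%, 1.19 to 4.95%). These chromosomes were singled out among 24 after their values were seen, and the intervals are not adjusted for that. All intervals by chromosome treat pairs as independent. Members also stood near each other, as described below, so these intervals may be too narrow.

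**Figure D4:**
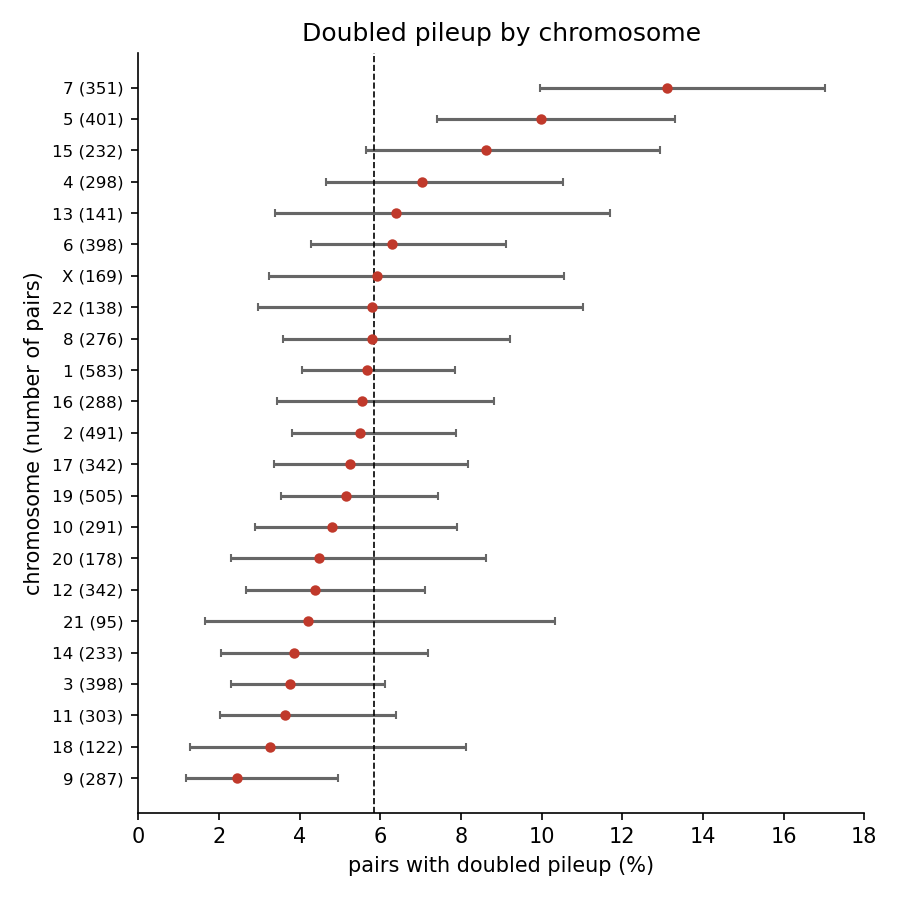
Points give the share of pairs with doubled pileup (%) on each chromosome with its number of pairs in parentheses (chromosome Y, with 1 pair, is left out), bars are 95% Wilson intervals and the dashed line marks all pairs (5.86%). Chromosomes 7 (13.1%) and 5 (9.98%) have intervals that lie above the line, and chromosome 9 (2.44%) one that lies below it.

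The pairs of chromosomes 7 and 5 were also higher as a whole. The median log2 ratio of pileup was 0.41 (0.35 to 0.47) on chromosome 7 and 0.38 (0.32 to 0.43) on chromosome 5, against 0.28 in all pairs. In windows of 20 Mb from the start of chromosome 7, members numbered 3 among 53 pairs, 3 among 32, 1 among 25, 9 among 57, 6 among 67, 5 among 32, 7 among 31 and 12 among 54. Shares above 15% were found in 7 of the 135 windows with at least 20 pairs, of which 4 were on chromosome 7 and 1 each on chromosomes 5, 6 and 8. Without the window that held most, the share was 11.4% on chromosome 7 and 8.57% on chromosome 5, against 5.17% on the chromosomes other than these. With at least 50 reads at both summits the shares were 10.4% and 6.65%, against 3.87%.

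No excess of doubled fold enrichment was detectable on chromosome 7. A doubling of fold enrichment was found in 30 of its 351 pairs (8.55%, 6.05 to 11.9%), against 9.08% on the chromosomes other than 5 and 7, a difference of -0.53 points (-3.14 to 2.93). On chromosome 5 it was found in 60 of 401 (14.96%, 11.8 to 18.8%), a difference of 5.88 points (2.64 to 9.77). A doubling of the expectation was found in 16.2% of pairs on chromosome 7 and 16.5% on chromosome 5, against 13.5%, and both differences had intervals that held 0. The median log2 ratio of the expectation was 0.25 on chromosome 7 and 0.21 on chromosome 5, against 0.20 in all pairs, and its part in these shares was not tested.

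Members also stood near each other. Within 2 kb of 61 members there was another pair, and the nearest of them was a member itself in 14 (23.0%, 95% Wilson CI 14.2 to 34.9%), beside the 5.86% of all pairs. For the other pairs with a neighbour this near, it was 45 of 1038 (4.34%, 3.26 to 5.75%). At 2 to 10 kb the shares were 7.02% (2.76 to 16.7%) and 4.62% (3.55 to 6.0%), which overlap. At 10 to 50 kb they were 13.4% (8.0 to 21.6%) and 5.47% (4.44 to 6.73%), and at 50 to 200 kb 15.3% (9.79 to 23.2%) and 6.06% (5.01 to 7.32%). Members that are each other's nearest pair are counted from both sides, so the first intervals are too narrow. These shares were not weighted to NC-sh reads. Of all pairs with 25 to 51 NC-sh reads, 21.1% were members, and the part of read depth in the neighbour shares was not tested.

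**Figure D5:**
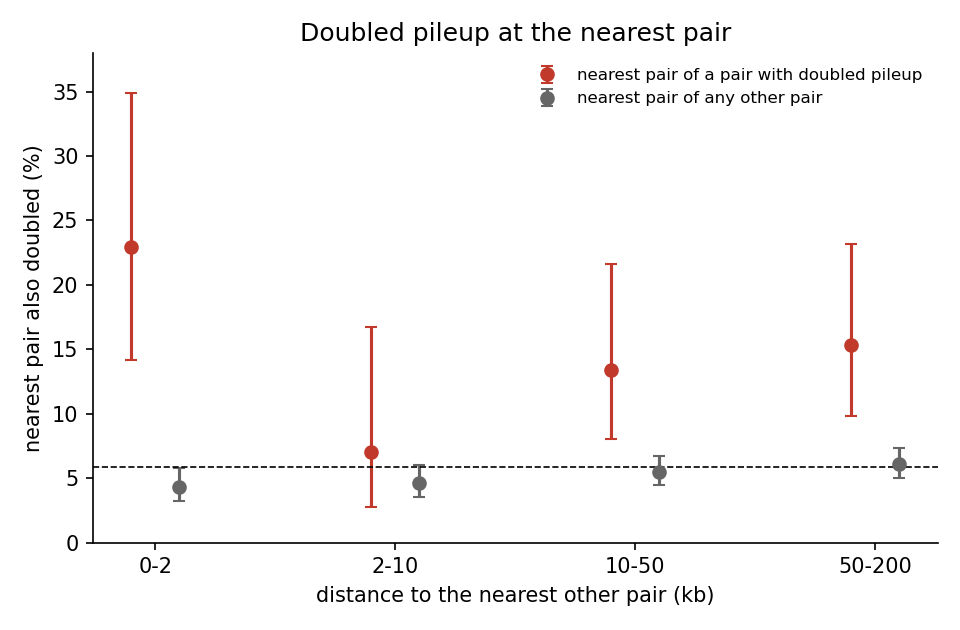
Points give the share (%) of nearest other pairs that also had doubled pileup, by distance (kb), for the nearest pairs of members and of all other pairs, with 95% Wilson intervals and a dashed line at 5.86%. The share is 23.0% within 2 kb of a member against 4.34% for other pairs, and the intervals overlap only at 2 to 10 kb. The shares are not weighted to NC-sh reads.

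The ratio of the neighbours was shifted, though most neighbours were not doubled. Within 10 kb, the nearest pair of a member had a median log2 ratio of pileup of 0.42 (0.31 to 0.56) in 118 members, against 0.26 (0.24 to 0.29) in 2184 other pairs. Its expectation had a median log2 ratio of 0.49 against 0.19, and its fold enrichment one of 0.12 in both. For the expectation this pools 0.59 against 0.16 within 2 kb and 0.37 against 0.20 at 2 to 10 kb. For fold enrichment it pools 0.19 against 0.12 within 2 kb and 0.062 against 0.13 at 2 to 10 kb. At 10 to 50 kb the expectation had a median log2 ratio of 0.23 against 0.20 and fold enrichment one of 0.25 against 0.13. At 50 to 200 kb the expectation had one of 0.20 in both and fold enrichment one of 0.23 against 0.13. The medians of expectation and fold enrichment were given no intervals, and a change of the gap with distance was not tested. The expectation is a local value, so near pairs may draw on the same Input reads. A near neighbour's expectation is therefore not an independent value, and the part of such sharing was not tested. A peak called in METTL3-sh alone lay within 10 kb of 26.1% of the members (22.1 to 30.6%) and of 21.0% of the other pairs, or 23.2% when these were weighted to the members' NC-sh reads. For peaks called in NC-sh alone the shares were 13.9% (10.9 to 17.7%) and 11.8%.

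When members with summits within 50 kb were joined, 39 members formed 18 runs, and 363 stood alone. Runs were not counted for an equal number of other pairs, so these numbers do not measure clustering. The runs had 2 members in 15 cases and 3 in the other 3. On chromosome 2 from 130784651 to 130829155, all 3 pairs were members with log2 ratios of pileup of 1.06 to 1.46, a median log2 ratio of fold enrichment of -0.10 and of expectation of 1.51. On chromosome 19 from 58264979 to 58298329, 3 of 4 pairs were members with ratios of 1.03 to 1.12, and there fold enrichment had a median log2 ratio of 1.03 and expectation one of 0.020. The remaining pair of that run was lower in METTL3-sh, at -0.32. The last run of 3 was on chromosome 8, with ratios of 1.03 to 1.27. Pileup thus rose with the expectation in the run on chromosome 2 and over it in the run on chromosome 19.

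Among runs of 2, the ratio was highest on chromosome 11 from 281242 to 295669 (1.21 and 1.89), where fold enrichment had a median log2 ratio of 1.85 and expectation one of -0.37. It was next on chromosome 7 from 157402721 to 157406106 (1.28 and 1.61), with 0.45 and 1.70. On chromosome 2 from 74345914 to 74348269 (1.23 and 1.28) it was 1.13 and 0.16. In 15 of the 18 runs no pair other than members lay between their ends, a count that was also not set beside other pairs.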

How the data were processed

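For both MeRIP libraries the authors deposited 1 list of peaks. These lists by the authors give pileup (a signal, summit reads times a library factor), fold enrichment (a ratio, pileup over local expectation after adding 1 to each) and each peak's −log10 p and −log10 q from the caller. The submitters' processing notes name bcl2fastq, TopHat2 2.0.13, MACS2 2.1.0.20151222 and hg19. Filters are not given in the sources used here. Total depth is unknown. Depth was read as pileup divided by its step.

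Peaks were paired by overlap, and the expectation was computed as (pileup + 1) / fold enrichment - 1, taken as lowest within 0.01 of the library's minimum. Shares have Wilson, differences Newcombe, read ratios exact binomial and medians order-statistic 95% intervals. PCR reads are not independent molecules, so these cover counting error only. Python 3.11.15, numpy 2.4.6, pandas 2.3.3, scipy 1.17.1 and matplotlib 3.10.9 were used. On simulated data without counting noise, 200 of 6669 pairs were raised well past the threshold, and all 200 were recovered. This checks the code only and does not bear on pairs near the threshold.

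The members and lists were chosen with earlier results of these data known. Named are the 12 members with the largest ratio, the 12 with the highest METTL3-sh −log10 q, 3 on either side of the threshold and 6 each with the least and the largest change of expectation. The rules that name genes, by 2 or more members in a gene or by gene lists, and the cell type markers could not be used, since the lists carry no gene names and no hg19 annotation or sequence was used here. Runs within 50 kb, the groups by reads, the chromosomes, the windows and the neighbours were chosen after the data were seen. RefSeq's GRCh38.p14 table was not used for positions, since 155 peaks of NC-sh and 198 of METTL3-sh started past its last gene on their chromosome.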

Additional observations from a re-analysis of the deposited data

How the results depend on the processing

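Stricter overlaps (50% of both peaks, or summits within 100 bp) and groups of overlapping peaks left the number of members (357, 380 and 413 against 402) and both medians within the limits set for a change. With reads in place of pileup there were 214 doubled pairs, with a median log2 ratio of fold enrichment of 0.92. With the ratio centred on the median of all pairs there were 116, with medians of 1.03 for fold enrichment and 0.74 for the local expectation. Pairs at least halved then went from 45 to 118. Centring puts as many pairs above 0 as below it by construction, so it cannot tell what the excess of doubled over halved pairs rests on. With fold enrichment in place of pileup there were 645, with medians of 1.30 and -0.94, so the expectation was then lower in METTL3-sh. With a −log10 q of at least 36.6, the median over both lists, there were 76 of 4160 pairs, with medians of 0.45 and 0.74. With at least 50 reads at both summits there were 265 of 6089. The last 2 filters leave fewer pairs by construction. Reads and the centred ratio amount to a higher threshold on pileup, so the pairs they leave are all members. Fold enrichment has the expectation in its divisor, so choosing on it favours a lower METTL3-sh expectation by arithmetic. For any other change the cause was not tested. Of the 402 members, 214, 116 and 155 were also doubled by reads, by the centred ratio and by fold enrichment. On chromosomes 7 and 5 the shares were 6.84% and 6.98% by reads, against 2.65% elsewhere, and 3.13% and 4.24% by the centred ratio, against 1.44%. These settings for the chromosomes were chosen after seeing the data. The alternatives planned for the 3′UTR and for GGAC were not run, since the annotation at hand is on another build. No paired analysis was possible because the libraries were single.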

Other observations

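The rule for pairs leaves out places where a peak of one list overlaps several peaks of the other. There were 213 such groups, 106 with more NC-sh than METTL3-sh peaks and 100 with more METTL3-sh than NC-sh peaks. Set by the highest pileup of each list, 11 of them (5.16%) had at least a doubling, beside 5.86% of the pairs, and their median log2 ratio was 0.36. The largest pileups among the 11 were on chromosome 2 from 73675769 to 73676983, at 142 and 297 in NC-sh and METTL3-sh, and on chromosome 1 from 23520198 to 23521364, at 88.0 and 177. In the first, 2 NC-sh peaks stood under 1 METTL3-sh peak, and fold enrichment was 11 and 16.6. In the second, 1 NC-sh peak stood under 2 METTL3-sh peaks, and fold enrichment was 7.42 and 12.7.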
